A study of Mus musculus with 14 samples.

Results

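The genes examined were 35 members of a metabolic module: the glucose transporters and hexokinases, the enzymes of glycolysis, lactate dehydrogenase and the lactate carriers, the kinases and the catalytic subunit that set pyruvate entry into mitochondria, the pentose phosphate enzymes, the oxygen-regulated factor Hif1a, and 4 amino acid transporter subunits. They were picked by name, with earlier results of these data known. Of these, 34 had a value in at least 1 sample, and Slc7a5 was not analysed here. Reads per gene were given as FPKM, a measure scaled by transcript length and sequencing depth, so that levels of different genes can be compared per length. In the first experiment 43669 genes had a value in every sample, and in the second 32448.

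The samples were CD4+ T cells of C57BL/6 mice in 2 experiments, each with its own wild-type (WT) controls. In the first, 4 samples with both Hdac1 alleles and 1 Hdac2 allele floxed and the CD4-cre transgene (HDAC1cKO-HDAC2HET) were compared with 4 WT samples after 3 days of activation through CD3 and CD28 with IL-2, under nonpolarizing conditions. In the second, 3 samples with both Hdac1 alleles floxed and CD4-cre (HDAC1cKO) were compared with 3 WT samples after the same 3 days and a further 12 hours of restimulation with anti-CD3. HDAC1 and HDAC2 are the closely related deacetylases that remove acetyl groups from histones. In the first experiment the cultures of both genotypes began from sorted naive CD4+ cells, pooled from spleen and lymph nodes although the labels name spleen, and in both experiments viable cells were sorted before RNA was prepared. The CD4 promoter drives Cre from a thymic stage that precedes the split into CD4+ and CD8+ cells, so the deletion was not confined to the CD4+ cells of the donor animals. The study describes the samples of the first experiment as biological samples from mice, prepared as independent batches on 1 day. The labels do not say which animals gave each sample, and the p-values measure the spread between these samples.

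Activated T cells are known to switch from burning fuel in mitochondria to fast glycolysis. Glucose enters through Slc2a1 and Slc2a3, is trapped by hexokinase, and is split and oxidized to pyruvate. Much of the pyruvate becomes lactate, which leaves the cell through Slc16a1 and Slc16a3, and part of the glucose 6-phosphate is diverted into the pentose phosphate pathway, which yields NADPH and ribose. The amino acid transporters Slc7a5, Slc3a2, Slc1a5 and Slc38a2 feed protein synthesis and mTORC1 signalling in the same cells, and Hif1a is a transcription factor known to drive many genes of the pathway.

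The checks on the samples held for the deleted genes. Hdac1 was 6.65 to 10.7 FPKM in HDAC1cKO-HDAC2HET against 76.3 to 79.6 in its WT, and 8.52 to 12.1 in HDAC1cKO against 72.3 to 81.1. Hdac2 was 34.03 to 37.0 in HDAC1cKO-HDAC2HET against 58.2 to 60.3. All 8 CD4 T cell markers had values above 1 FPKM in every group, and in HDAC1cKO-HDAC2HET Thy1 and Cd2 were higher and Cd4, Cd3d, Cd3e, Cd3g, Cd28 and Lck lower by limma, from 0.92 for Thy1 to -0.65 for Cd3d on the log2 scale. The NK and erythroid markers with a value were under 1 FPKM in every sample. The 2 CD8 markers Cd8a and Cd8b1 summed to 11.7 to 15.2 FPKM in HDAC1cKO-HDAC2HET against 3.28 to 5.96 in WT, and to 6.52 to 7.30 in HDAC1cKO against 3.80 to 4.86. Cd8a stayed under 1 FPKM in every sample, as did the B cell markers with a value other than Cd79b, which was 2.12 to 3.26 FPKM in HDAC1cKO-HDAC2HET and at most 0.376 in its WT. Myeloid markers with a value were under 1 FPKM in every sample with the exception of Cd68. The 7 proliferation markers summed to 1102 to 1116 FPKM in HDAC1cKO-HDAC2HET against 1027 to 1107 in WT, with Ccnb1, Cdk1 and Birc5 higher, Pcna lower and the other 3 not passing. Heat shock and early stress genes summed to 73.0 to 85.6 against 118 to 125 FPKM. Of these, Egr1, Fos and Dnajb1 were lower in the mutant, Jun was higher, and Hspa1a and Hspa1b did not pass. Of the sex markers, Xist was 26.0 to 33.7 FPKM in HDAC1cKO-HDAC2HET against 58.9 to 65.2 in WT (log2 fold change -1.07, limma adjusted p = 3.99e-05). The other sex markers with a value stayed under 1 FPKM in both groups. The members Pgk1, Pdk3, Pdha1 and G6pdx lie on the X chromosome. The part of all these markers in the results below was not tested, and in such bulk samples fewer cells of a type and less RNA per cell cannot be told apart.

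The promoters of the 2 members with the largest falls and the 2 with the largest rises in HDAC1cKO-HDAC2HET, and of Ldha, the member with the highest level, are shown because the module is known as a target of HIF, whose binding sites hold the core ACGTG or GCGTG. They run from 250 bases before to 50 bases after the annotated start, 5′ to 3′ on the gene's own strand, from RefSeq on build GRCm38.p6. Capitals mark ACGTG or GCGTG on either strand, so that the reverse strand reads CACGT or CACGC.
Aldoc, chr11:78322823-78323122, + strand: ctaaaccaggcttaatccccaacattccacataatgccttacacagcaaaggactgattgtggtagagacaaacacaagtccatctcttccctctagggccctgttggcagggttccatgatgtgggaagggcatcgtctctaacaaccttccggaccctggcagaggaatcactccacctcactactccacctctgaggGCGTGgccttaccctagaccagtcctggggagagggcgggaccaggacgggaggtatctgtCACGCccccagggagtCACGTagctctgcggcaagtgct
Pfkfb4, chr9:108991652-108991951, + strand: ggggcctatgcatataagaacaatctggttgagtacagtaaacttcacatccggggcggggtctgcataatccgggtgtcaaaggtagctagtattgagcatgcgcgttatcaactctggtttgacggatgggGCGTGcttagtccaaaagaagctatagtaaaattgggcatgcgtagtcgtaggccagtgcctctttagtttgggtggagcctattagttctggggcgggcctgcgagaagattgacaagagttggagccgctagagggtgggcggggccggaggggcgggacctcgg
Eno3, chr11:70656926-70657225, + strand: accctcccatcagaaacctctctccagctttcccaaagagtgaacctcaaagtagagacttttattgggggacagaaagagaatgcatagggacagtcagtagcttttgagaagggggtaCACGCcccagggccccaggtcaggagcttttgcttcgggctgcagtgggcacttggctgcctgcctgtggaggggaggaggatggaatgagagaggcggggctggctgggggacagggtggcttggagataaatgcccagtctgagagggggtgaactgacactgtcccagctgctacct
Eno2, chr6:124769624-124769923, - strand: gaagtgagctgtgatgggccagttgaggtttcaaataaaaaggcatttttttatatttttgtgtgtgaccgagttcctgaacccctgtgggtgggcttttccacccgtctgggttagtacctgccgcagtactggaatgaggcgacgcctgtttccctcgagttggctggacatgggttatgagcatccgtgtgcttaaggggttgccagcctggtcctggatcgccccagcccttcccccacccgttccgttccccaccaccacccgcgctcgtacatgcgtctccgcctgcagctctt
Ldha, chr7:46845554-46845853, + strand: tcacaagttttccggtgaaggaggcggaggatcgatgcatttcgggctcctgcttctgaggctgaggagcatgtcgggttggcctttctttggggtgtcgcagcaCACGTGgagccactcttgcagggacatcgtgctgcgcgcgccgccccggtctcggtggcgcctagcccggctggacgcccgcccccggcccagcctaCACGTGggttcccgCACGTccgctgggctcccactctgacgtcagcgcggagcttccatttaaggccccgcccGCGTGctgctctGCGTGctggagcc

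Aldoc held 3 copies of the core, Pfkfb4 and Eno3 held 1 each, Eno2 held none and Ldha held 7. The copies of Ldha lie in 5 marked stretches, since a CACGTG counts once on each strand. RefSeq promoters were found for 32 of the 35 members, with 46 start sites among them. ACGTG on either strand was in 18 of the 32 members and in 19.6% of all 32851 promoters of the same length, GCGTG was in 22 members and in 32.4% of all promoters, and 29 members held one or the other at 1 or more of their start sites, against 43.8% of all promoters. A member with several start sites has more than 1 promoter in which to hold a core, so these counts run high against the share of single promoters. Counted by start site, 45.7% of the members' promoters held ACGTG, 58.7% held GCGTG and 80.4% held either core. The member promoters were richer in G and C, at a median of 61.5% against 52.7% of bases. The E-box CACGTG, the site of MYC and its relatives, overlaps ACGTG, and was in the promoters of 5 members, Pfkm, Pfkfb3, Ldha, Slc16a1 and Hif1a. By start site it was in 10.9% of the members' promoters and in 7.15% of all promoters. The amino acid response element TGATGNAA was in no member promoter and in 3.97% of all. A match is a description of the letters in this window and not of binding.

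The levels of the members spanned 3 orders of magnitude within one pathway, as the plot of FPKM by sample shows. Among the 32 members that could be tested in the first experiment the median of the mean FPKM was 86.3, against 6.41 for all 15105 genes tested, and 19 of the 32 lay above the 90th percentile of all genes (64.6 FPKM). Ldha, the lactate dehydrogenase subunit that favours lactate, was the highest, followed in WT by Pkm, the last enzyme of glycolysis, and Gapdh. The lowest tested member was Pfkfb4, a kinase and phosphatase that sets fructose 2,6-bisphosphate, at a mean of 1.86 FPKM.

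**Figure D1:**
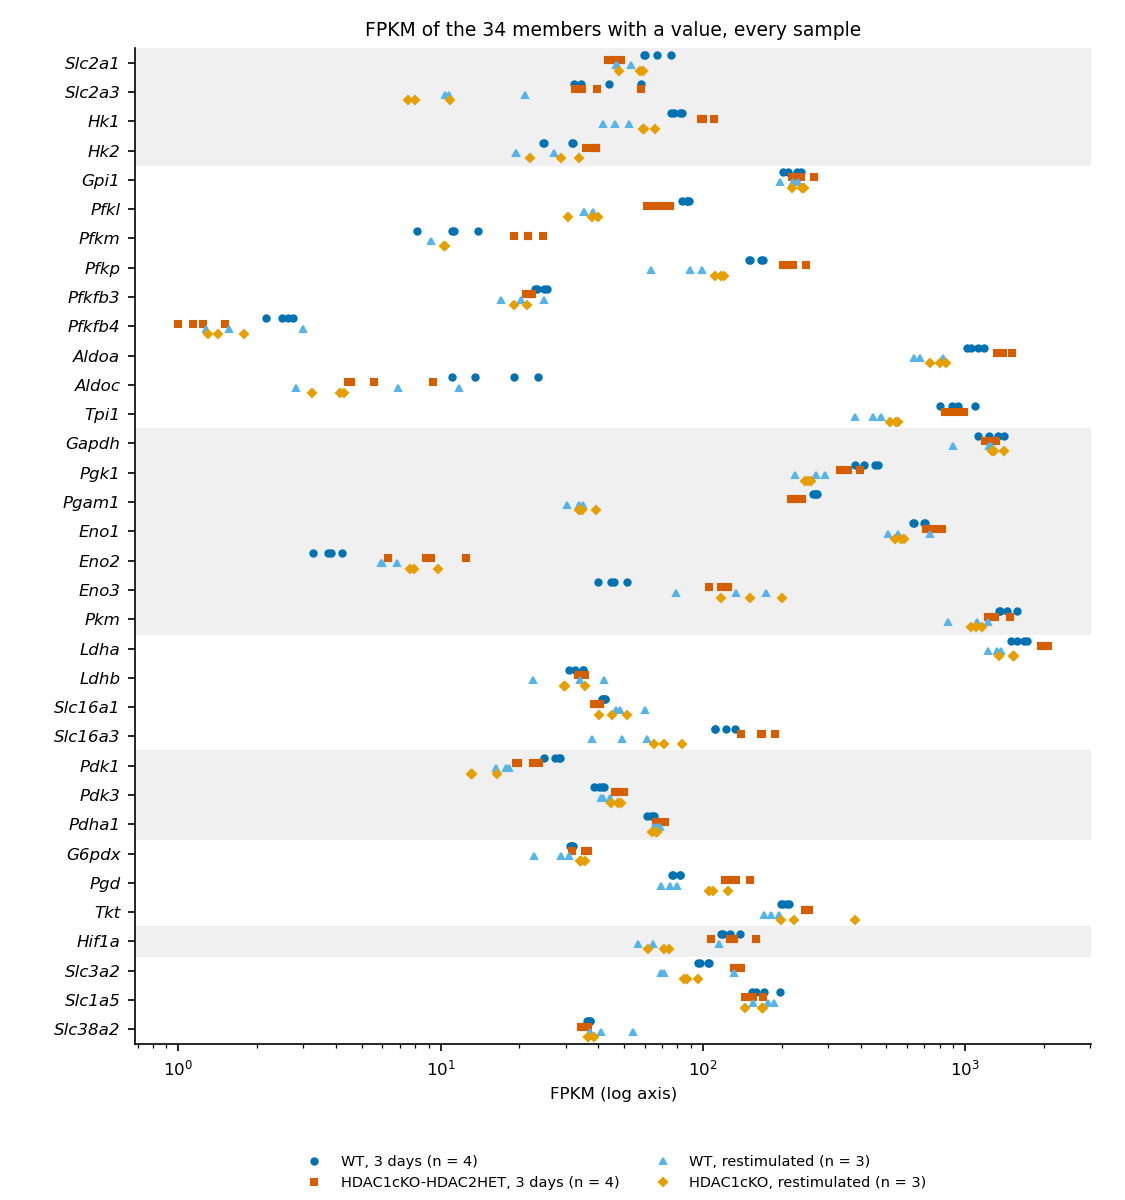
FPKM on a log axis of every member with a value, in each sample (circles, WT at 3 days; squares, HDAC1cKO-HDAC2HET; triangles, WT restimulated; diamonds, HDAC1cKO), with grey and white bands separating the roles. Values of 0 are not drawn, and Ldha, Pkm, Gapdh, Aldoa and Tpi1 lie at the high end while Pfkfb4 and Eno2 lie at the low end.

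The first comparison asked how the module differs when Hdac1 is lost and 1 Hdac2 allele remains. Of the 32 tested members 16 rose in HDAC1cKO-HDAC2HET, 9 fell and 7 did not pass the test (limma on log2(FPKM + 0.1), Benjamini-Hochberg adjusted p of at most 0.05 over all genes). Of all 15105 genes tested, 24.2% were called higher and 27.6% lower, so the members were called higher in 50% and lower in 28.1% of cases. The high levels of the members stand beside these shares, since a given change is easier to call in a gene with many reads. The changes were mostly small. The median log2 fold change of the members was 0.11 and the median size was 0.30, against -0.04 and 0.35 over all genes. Only 3 members passed and changed by at least 2-fold, Eno3 and Eno2 upwards and Aldoc downwards, where 5.60% of all genes did so upwards and 5.55% downwards. The groups did not overlap in 23 of the 32 members and in 50.4% of all genes, and 25 members and 56.5% of all genes had an unadjusted p under 0.05.

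**Figure D2:**
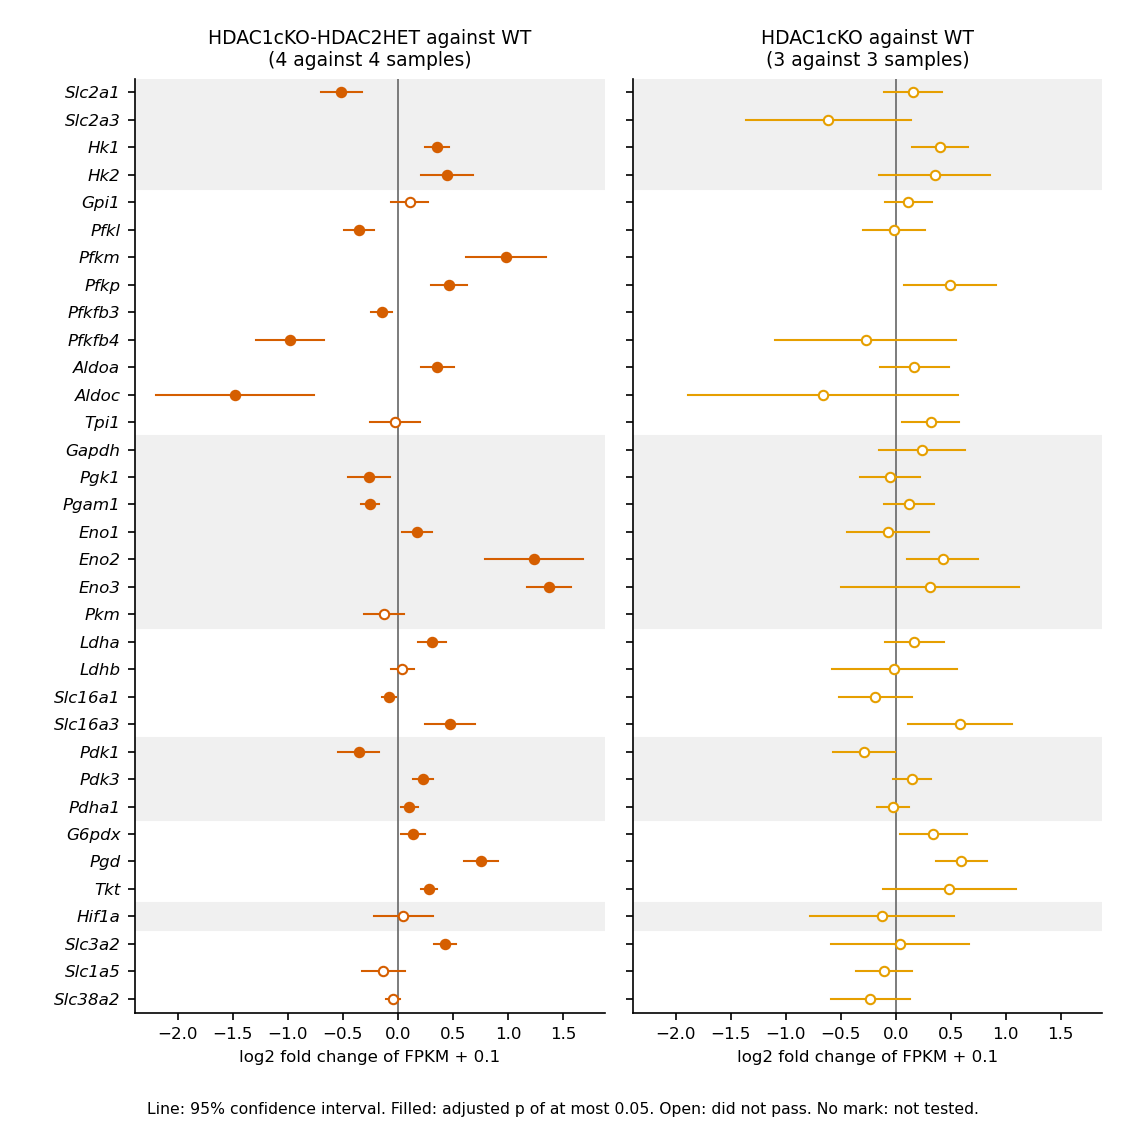
Log2 fold change of FPKM + 0.1 for each member in HDAC1cKO-HDAC2HET (left, 4 against 4 samples) and in HDAC1cKO (right, 3 against 3), each against its own WT, with 95% confidence intervals as lines. Filled marks passed an adjusted p of at most 0.05, open marks did not and missing marks were not tested. On the left 25 of 32 marks are filled, from Aldoc at -1.48 to Eno3 at 1.37, and on the right none of 31 is.

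At the point of glucose entry the transporter and the hexokinases moved in opposite directions. Slc2a1, the main glucose transporter of activated T cells, was 67.2, 60.2, 75.6 and 59.5 FPKM in the WT samples and 48.8, 46.4, 43.4 and 44.4 FPKM in HDAC1cKO-HDAC2HET. Every mutant sample lay under every WT sample, and the log2 fold change was -0.51 (SE 0.08, limma adjusted p = 0.00106). Hexokinase 1 (Hk1) and hexokinase 2 (Hk2), which trap glucose by phosphorylation, rose by 0.36 ± 0.05 and 0.45 ± 0.10 on the log2 scale (SE, n = 4 against 4, limma adjusted p = 0.000476 and 0.00651). The second transporter, Slc2a3, was listed at 32.3 to 58.1 FPKM in WT and 32.5 to 58.3 in the mutant, and it was not tested because the assembled loci differed between samples.

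In the upper part of glycolysis the isozymes of single steps split. The 3 phosphofructokinase genes, which encode the subunits of the committing enzyme, moved apart: Pfkm, the muscle form, and Pfkp, the platelet form, rose and Pfkl, the liver form, fell. Pfkm was 13.9, 8.12, 11.3 and 11.03 FPKM in WT and 19.1, 21.5, 21.6 and 24.7 FPKM in the mutant. Pfkp was 166, 151, 169 and 152 FPKM in WT and 248, 221, 209 and 203 FPKM in the mutant. Pfkl was 87.1, 83.5, 86.8 and 88.4 FPKM in WT and 74.8, 69.7, 61.2 and 65.8 FPKM in the mutant. In none of these genes did the groups overlap, and the log2 fold changes were 0.98 ± 0.16, 0.46 ± 0.07 and -0.35 ± 0.06 (SE, limma adjusted p = 0.00116, 0.000941 and 0.00158). Of the 50-base stretches of the Pfkp transcript, 17.1% also occur in transcripts of Pitrm1, a neighbour listed at 30.9 to 35.6 FPKM in WT and 31.6 to 36.8 in the mutant.

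Both members that set fructose 2,6-bisphosphate, which tunes phosphofructokinase, fell, as did Pfkfb1 of the neighbouring glycolytic list, by 0.83 on the log2 scale (limma adjusted p = 0.000988). Pfkfb4 was 2.62, 2.16, 2.75 and 2.49 FPKM in WT and 1.51, 1.14, 1.24 and 1.00 FPKM in the mutant. That is a log2 fold change of -0.98 ± 0.13 (SE, limma adjusted p = 0.000476), with every mutant sample under every WT sample. Pfkfb3 fell by only 0.15 on the log2 scale (limma adjusted p = 0.0176), and this call was lost in 1 of 21 other settings.

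The aldolases, which split the 6-carbon sugar, showed the largest fall and a rise side by side. Aldoc, the form known from brain, was 18.99, 11.1, 23.4 and 13.5 FPKM in WT and 9.39, 5.58, 4.54 and 4.45 FPKM in the mutant. The WT samples spread over more than the gap between the groups, but the groups did not overlap, and the log2 fold change was -1.48 ± 0.31 (SE, limma adjusted p = 0.00455). Aldoa, the main form at 1096 FPKM in WT (SD 74.7, n = 4), rose by 0.36 ± 0.06 on the log2 scale (limma adjusted p = 0.00208). Gpi1 and Tpi1, the isomerases of this stretch, had log2 fold changes of 0.11 and -0.03 and did not pass.

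In the lower part of glycolysis the largest changes were those of Eno3 and Eno2. Eno3, the muscle enolase, was 51.5, 46.0, 39.7 and 44.9 FPKM in WT and 106, 123, 124 and 117 FPKM in HDAC1cKO-HDAC2HET. Eno2, the neuronal enolase, was 3.25, 3.73, 3.82 and 4.21 FPKM in WT and 12.5, 8.83, 9.23 and 6.28 FPKM in the mutant. All mutant samples stood above all WT samples in both genes, and the log2 fold changes were 1.37 ± 0.09 and 1.24 ± 0.19 (SE, limma adjusted p = 1.05e-05 and 0.00101). No 50-base stretch of the Eno3 transcript occurs in another gene, whereas 72.2% of those of Eno1, the ubiquitous enolase, do, so that the value of Eno1 is less certain. Eno1 rose by 0.17 on the log2 scale (limma adjusted p = 0.0358), a call that was lost in 9 of 22 other settings.

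Pgk1 and Pgam1, which carry the triose phosphates on from Gapdh, fell. Pgam1 was 263, 273, 271 and 268 FPKM in WT and 239, 221, 217 and 224 FPKM in the mutant. The fall of 0.26 ± 0.03 on the log2 scale was small but larger than the spread of either group (limma adjusted p = 0.000467). Pgk1 fell by 0.26 ± 0.08 (limma adjusted p = 0.0277), and here the groups overlapped and the call was lost in 5 of 22 other settings. In Pgk1 and Pgam1, 68.0% and 41.5% of 50-base stretches occur in other genes, mostly the retrogenes Pgk1-rs7 and Pgam1-ps2, which were listed at no more than 0.0723 FPKM where a row was present.

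Gapdh and Pkm, both among the 3 highest members, showed no called change. Gapdh was listed at 1336, 1122, 1404 and 1237 FPKM in WT and at 1317, 1256, 1195 and 1293 FPKM in the mutant, with overlapping groups. The estimate carried a failed status in 7 of these 8 samples, so Gapdh was not tested. Pkm was 1358, 1346, 1583 and 1447 FPKM in WT and 1480, 1250, 1222 and 1302 FPKM in the mutant. Its log2 fold change was -0.13 (95% confidence interval -0.31 to 0.06, limma adjusted p = 0.221).

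**Figure D3:**
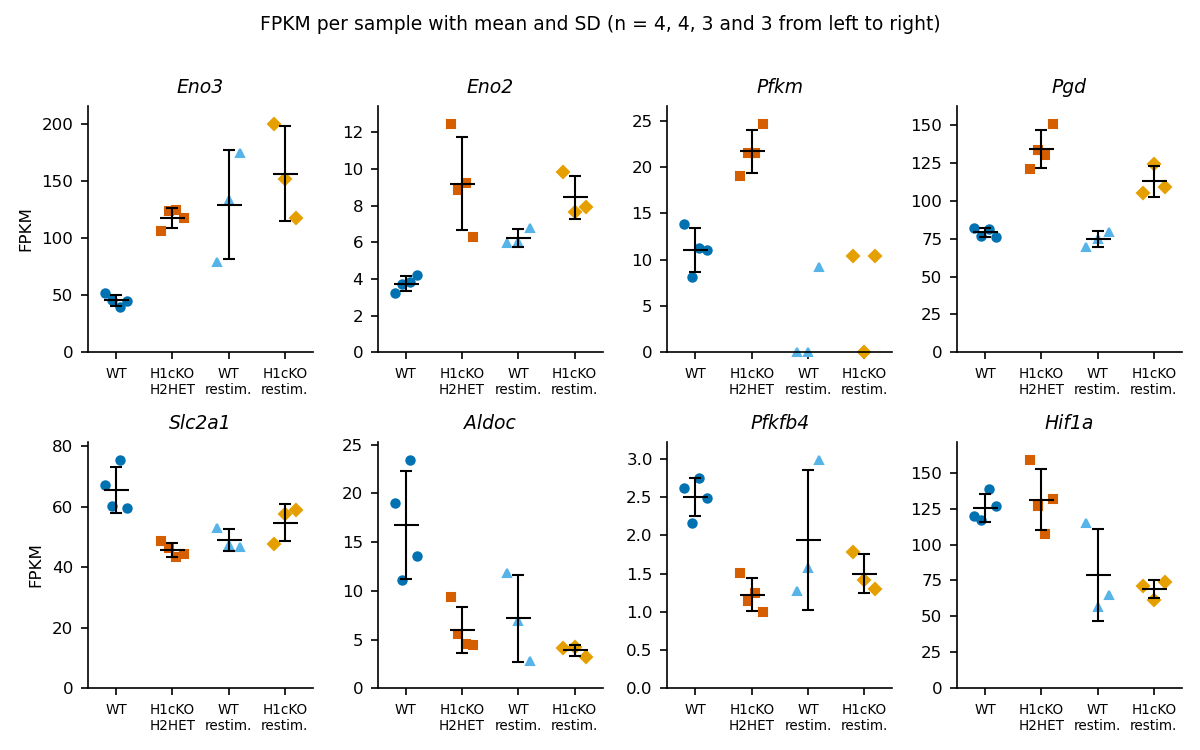
FPKM of 8 members in each sample of the 4 groups, with the mean (bar) and SD (whiskers) where every value is above 0. The 4 HDAC1cKO-HDAC2HET samples lie above the 4 WT samples in Eno3, Eno2, Pfkm and Pgd, below them in Slc2a1, Aldoc and Pfkfb4, and on both sides of them in Hif1a. On the axis HDAC1cKO and HDAC2HET are shortened to H1cKO and H2HET.

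For lactate, the enzyme and carrier of glycolytic cells rose and their partners changed little. Ldha was 1680, 1499, 1730 and 1585 FPKM in WT and 2069, 2037, 1949 and 1980 FPKM in the mutant. Slc16a3, the carrier known for lactate export, was 122, 111, 132 and 112 FPKM in WT and 188.6, 167, 140 and 169 FPKM in the mutant. Neither pair of groups overlapped, and the log2 fold changes were 0.31 ± 0.06 and 0.47 ± 0.10 (SE, limma adjusted p = 0.00217 and 0.00432). Ldhb, the subunit that favours pyruvate, had a log2 fold change of 0.04 (95% confidence interval -0.07 to 0.15) and did not pass. The carrier Slc16a1 was 41.7, 41.3, 42.5 and 42.4 FPKM in WT and 38.8, 40.7, 38.5 and 40.6 FPKM in the mutant. Its fall of 0.08 on the log2 scale passed (limma adjusted p = 0.0412), but the call was lost in 12 of 22 other settings.

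At the entry of pyruvate into mitochondria the 2 inhibitory kinases diverged. Pdk1, which is known to be induced by HIF and to switch pyruvate dehydrogenase off, fell by 0.35 ± 0.08 on the log2 scale, and Pdk3 rose by 0.23 ± 0.04 (SE, limma adjusted p = 0.00659 and 0.00183). Pdha1, the catalytic subunit that they phosphorylate, rose by 0.11 (limma adjusted p = 0.0308), a call lost in 7 of 22 other settings.

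All 3 pentose phosphate members rose. Pgd, the second NADPH-producing enzyme, was 82.2, 77.0, 81.6 and 76.3 FPKM in WT and 121, 134, 131 and 151 FPKM in the mutant. The lowest mutant sample lay well above the highest WT sample, and the log2 fold change was 0.75 ± 0.07 (SE, limma adjusted p = 5.22e-05). Tkt, transketolase, rose by 0.28 ± 0.03 (limma adjusted p = 0.000160), a call lost in 1 of 22 other settings. G6pdx, the first and rate-limiting enzyme, rose by 0.13 (limma adjusted p = 0.0415). Its groups overlapped, with 31.7 FPKM in mutant replicate 1 and 35.6 to 36.4 in the others, and the call was lost in 12 of 22 other settings.

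Hif1a did not pass. It was 120, 117, 139 and 127 FPKM in WT and 159, 127, 107 and 132 FPKM in the mutant, with a log2 fold change of 0.05 (95% confidence interval -0.22 to 0.32, limma adjusted p = 0.75). The mutant samples lay on both sides of the WT samples.

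Of the amino acid transporters only Slc3a2, the heavy chain shared by several exchangers, passed. It rose by 0.43 ± 0.04 on the log2 scale, from a range of 95.7 to 106 FPKM in WT to 132 to 139 in the mutant (limma adjusted p = 9.33e-05). The glutamine transporters Slc1a5 and Slc38a2 had log2 fold changes of -0.13 (95% confidence interval -0.33 to 0.06) and -0.05 (-0.11 to 0.02). Slc7a5, the light chain that pairs with Slc3a2, was not analysed here.

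The shifts between isozymes could be read within each sample, as the share of a family's summed FPKM, which does not depend on library scaling. Pfkl made up 33.7% of phosphofructokinase FPKM in WT (SD 1.36, n = 4) and 21.9% in HDAC1cKO-HDAC2HET (SD 0.668, n = 4), while Pfkp rose from 62.0% to 71.0% and Pfkm from 4.29% to 7.07%. Eno3 rose from 6.36% to 13.4% of enolase, and Aldoc fell from 1.49% to 0.419% of aldolase. Slc16a3 rose from 73.9% to 80.6% of the 2 lactate carriers and Pdk3 from 59.8% to 69.03% of the 2 kinases. In each of these shares the groups were fully apart, with a 2-sided exact permutation p of 0.0286, the smallest that 4 against 4 samples allow, and 0.0343 after adjustment over the 18 sums and shares examined. The share of Hk2 in the hexokinases, 26.0% in WT and 27.2% in the mutant, did not pass (exact permutation, adjusted p = 0.303). The summed FPKM rose in hexokinase, phosphofructokinase, aldolase, enolase, lactate dehydrogenase and the lactate carriers, while that of the kinases did not pass, at 67.9 FPKM in WT and 68.96 in the mutant.

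**Figure D4:**
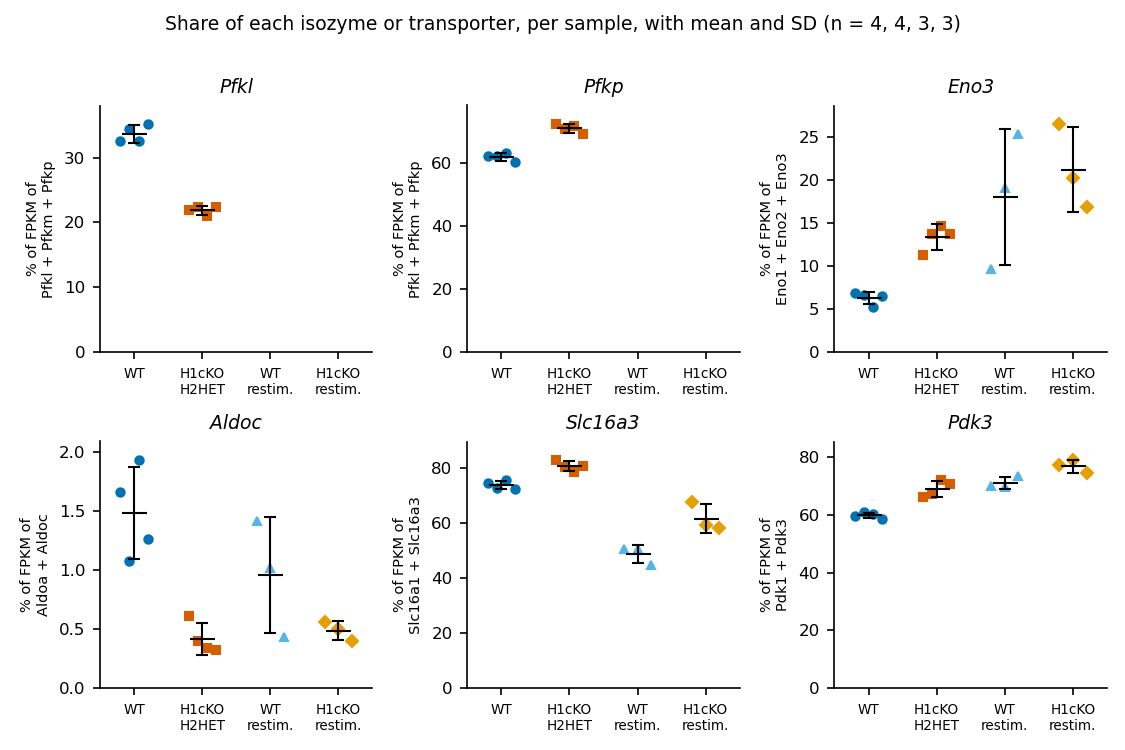
Share in percent of 1 gene in the summed FPKM of its isozyme or carrier family, in each sample of the 4 groups (H1cKO, HDAC1cKO; H2HET, HDAC2HET), with mean (bar) and SD (whiskers). Phosphofructokinase is not drawn for the restimulated groups, where Pfkm was listed at 0 in 3 of 6 samples. In HDAC1cKO-HDAC2HET the shares of Pfkl (21.9%) and Aldoc (0.419%) lie below WT and those of Pfkp, Eno3, Slc16a3 and Pdk3 above it.

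Genes next to the module were counted in 7 lists, to be read against the 24.2% of all genes called higher and the 27.6% called lower. Among other glycolytic and glucose genes 5 of 11 tested rose and 3 fell, with the transporter Slc2a6 at -1.32, the ADP-dependent glucokinase Adpgk at -1.02 and the phosphoglucomutase Pgm2 at 0.90 on the log2 scale (limma adjusted p = 0.000486, 2.55e-06 and 6.90e-06). Adpgk went from 43.1 to 49.1 FPKM in WT to 22.0 to 22.5 in the mutant. Among other pyruvate and lactate genes 7 of 15 rose and 5 fell, led by Ldhd at -1.12, Slc16a6 at 1.04 and Pdhx at 0.49. Ldhd stayed under 1 FPKM in every sample of both groups. In the pentose phosphate pathway Taldo1, transaldolase, rose by 0.92, from 99.1 to 112 FPKM in WT to 182.9 to 204 in the mutant, and Rpia fell by 0.43, with 5 tested.

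In the hypoxia pathway 9 of 18 genes fell and 4 rose, where 27.6% and 24.2% of all genes did, with a median of -0.36 against -0.04 over all genes, and the largest changes were those of Ankrd37 at -1.51, Epas1 at 1.51 and P4ha2 at 1.20 on the log2 scale. Ankrd37, a known HIF target, was 16.8 to 20.6 FPKM in WT and 5.44 to 8.10 in the mutant, whereas Epas1, which encodes HIF-2α, stayed under 1 FPKM. Of the amino acid response genes 7 of 12 rose and none fell by this test, where 24.2% of all genes were called higher, with a median of 0.33. The 7 were also those at an unadjusted p under 0.05, a share near the 56.5% of all genes. Chac1, a glutathione-degrading enzyme, rose by 0.97, and Mthfd2 and Shmt2, mitochondrial enzymes of folate metabolism, rose by 0.61 and 0.55. Mthfd2 was 82.6 to 98.5 FPKM in WT and 132 to 146 in the mutant.

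Among metabolic regulators 5 of 15 rose and 6 fell, against 24.2% and 27.6% of all genes. Myc, a transcription factor known to drive glycolytic and amino acid transporter genes after activation, rose by 0.56, from 166 to 197 FPKM in WT to 249 to 268 in the mutant (limma adjusted p = 0.000132). Txnip, an arrestin that restrains glucose uptake, fell by 0.68, and Rictor, a subunit of mTORC2, fell by 0.62. Of the other amino acid transporters 2 of 12 fell, Slc36a4 by 0.58 and Slc43a2 by 0.23, and none rose, with 3 of 12 at an unadjusted p under 0.05.

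The second comparison asked the same of restimulated cells that lacked Hdac1 alone. None of the 31 tested members passed in HDAC1cKO by limma, where 0.0719% of all 13913 genes did, and 8 members had an unadjusted p under 0.05, where 14.4% of all genes did. With all 14 samples in one fit 5 of 29 members were higher, Hk1, Pfkp, Slc16a3, G6pdx and Pgd, where 11% of all 12350 genes were called in either direction. With 3 samples against 3 a single value cannot go below an exact permutation p of 0.1. The Xist transcript was under 1 FPKM in the 3 HDAC1cKO samples and in WT replicate 2 and above it in the other WT samples. The genotype comparison is therefore not balanced for sex. With sex in the fit the genotype effect rests on WT replicate 2 alone, so that fit cannot decide the part of sex.

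Pgd came closest to the threshold. It was 69.3, 74.7 and 79.7 FPKM in WT and 105, 125 and 109 FPKM in HDAC1cKO, with a log2 fold change of 0.60 (95% confidence interval 0.37 to 0.83, limma adjusted p = 0.133). The groups did not overlap, as in 10 of the 31 members and in 22.3% of all genes. The other 9 were Hk1, Pfkp, Tpi1, Gapdh, Eno2, Slc16a3, Pdk3, G6pdx and Tkt, each with the 3 HDAC1cKO samples on the high side. Slc16a3 was 61.4, 49.2 and 37.9 FPKM in WT and 83.7, 65.1 and 71.1 in HDAC1cKO, at a log2 fold change of 0.58 (95% confidence interval 0.12 to 1.05, limma adjusted p = 0.283). Tkt was 172, 196 and 181.9 FPKM in WT and 198, 223 and 382 in HDAC1cKO, where replicate 3 stood far above the rest.

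In Eno3, Aldoc, Slc2a1, Pfkfb4 and Hif1a the groups overlapped, and in Eno2 they did not. Eno3 was 79.4, 134 and 175 FPKM in WT and 200, 152 and 117 in HDAC1cKO, so that the groups overlapped, and its log2 fold change was 0.31 (95% confidence interval -0.49 to 1.12). Aldoc was 11.8, 6.91 and 2.81 FPKM in WT and 4.14, 4.28 and 3.22 in HDAC1cKO. Eno2 was 5.95, 5.99 and 6.81 FPKM in WT and 9.82, 7.68 and 7.92 in HDAC1cKO. Slc2a1 was 53.2, 47.3 and 46.7 FPKM in WT and 47.8, 57.5 and 59.0 in HDAC1cKO, with a log2 fold change of 0.16 (95% confidence interval -0.11 to 0.42). Pfkfb4 was 1.27, 1.57 and 2.99 FPKM in WT and 1.78, 1.42 and 1.30 in HDAC1cKO, with overlapping groups. Hif1a was 115, 56.5 and 64.8 FPKM in WT and 71.0, 61.8 and 74.2 in HDAC1cKO, the high value being that of WT replicate 1.

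The highest members did not pass either. Ldha was 1327, 1377 and 1220 FPKM in WT and 1351, 1527 and 1532 in HDAC1cKO (log2 fold change 0.17, 95% confidence interval -0.10 to 0.44). Gapdh was 1233, 1258 and 897 FPKM in WT and 1286, 1411 and 1269 in HDAC1cKO. Pkm was listed at 1225, 1111 and 861 FPKM in WT and 1050, 1160 and 1105 in HDAC1cKO and was not tested, because the estimate of WT replicate 1 had a failed status. The Ldha groups overlapped, and the Gapdh groups did not, with 1258 FPKM in the highest WT sample and 1269 in the lowest HDAC1cKO sample. Pfkm was listed at 0 in WT replicates 1 and 2 and in HDAC1cKO replicate 2 and at 9.21 to 10.4 FPKM in the other samples, and Pfkfb3 had no matched locus in HDAC1cKO replicate 3, so neither was tested.

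None of the 7 neighbouring lists held a gene that passed in HDAC1cKO by limma, where 0.0719% of all genes did. The counts at an unadjusted p under 0.05 are to be read against 14.4% of all genes. At an unadjusted p under 0.05 were 4 of 14 other glycolytic and glucose genes, 3 of 14 other pyruvate and lactate genes, 1 of 4 other pentose phosphate genes, 4 of 16 hypoxia genes, 3 of 16 regulators, and none of 12 other amino acid transporters or of 12 amino acid response genes.

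The 2 mutants could be set side by side over the 29 members tested in both, whose controls are separate samples. The sign of the log2 fold change was the same in 22 of the 29. Of the 23 members that passed in HDAC1cKO-HDAC2HET and were tested in HDAC1cKO, 19 had the same sign and 17 had the larger change in HDAC1cKO-HDAC2HET. These 23 were picked by passing in HDAC1cKO-HDAC2HET, which by itself favours a larger change there. The same counts were not made over all genes. Such counts do not show whether the effects differ, so the difference was tested itself in 1 fit over all 14 samples. Of the 29 members 3 passed, where 11.7% of all 12350 genes did. The effect on Eno3 was higher in HDAC1cKO-HDAC2HET by 1.06 ± 0.30 on the log2 scale, and the effects on Slc2a1 and Pgam1 were lower by 0.67 ± 0.16 and 0.38 ± 0.09 (SE, limma adjusted p = 0.0421, 0.0202 and 0.0157). In HDAC1cKO the log2 fold change of Pgam1 was 0.12, with 34.9, 33.6 and 30.3 FPKM in WT and 34.6, 33.8 and 39.2 in the mutant.

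These 3 calls were not firm. With TPM scaling 1 of them passed, and with replicate 2 of either restimulated group left out 1 did. None passed without WT restimulated replicate 3 or without HDAC1cKO replicate 3. With sex in the fit the HDAC1cKO effect rests on WT restimulated replicate 2 alone, so that fit cannot decide. The 2 experiments differ in the mutant and in the culture at once, so genotype and restimulation cannot be told apart in this difference. In the neighbouring lists the calls are to be read against the 11.7% of all genes called in either direction. The effect in HDAC1cKO-HDAC2HET was higher for Pgm2 and lower for Adpgk among 11 other glycolytic and glucose genes tested. It was higher for Pdhb among 13 other pyruvate and lactate genes and for Taldo1 among 4 other pentose phosphate genes. Phgdh and Psat1 were higher among 12 amino acid response genes. Kdm3a and Vhl among 16 hypoxia genes and Max among 15 regulators were lower. None of 12 other amino acid transporters passed.

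The third comparison set the WT cells of the 2 cultures against each other. With 12 hours of restimulation after the 3 days 11 members, mostly enzymes of glycolysis, were lower than after 3 days alone, while Eno3, Eno2 and Slc16a1 were higher. Of the 29 members tested, 3 were higher, 11 were lower and 15 did not pass, against 22.1% of all 13589 genes called higher and 11.1% lower. All genes had a median of 0.11 on the log2 scale, which became 0.00 when libraries were scaled by their upper quartile, so the differences below, those of the neighbouring lists included, are given relative to that median. With that scaling 2 members were higher and 15 lower, and the share of higher among all called genes moved from 66.6% to 49.1%. The members' own median log2 fold change was -0.31 before that median is taken off. The limma p-values printed beside these differences belong to the changes before that subtraction, and the shifted values were not tested themselves.

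Culture and experiment cannot be told apart here: the 2 sets of files were made separately, against different annotations, and each group has its own libraries. Sex was not balanced either, since Xist was above 1 FPKM in all 4 WT samples at 3 days but not in restimulated replicate 2. The part of sex in this comparison was not tested. The limma test of this comparison made more false calls on simulated data than its threshold allows, and with 1 weight per experiment 3 members were higher and 10 lower. WT restimulated replicate 1 stood apart from the other 2 in Hif1a, Slc2a3 and Slc3a2, where it was high, and in Eno3, where it was low. Without it 16 members were lower.

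**Figure D5:**
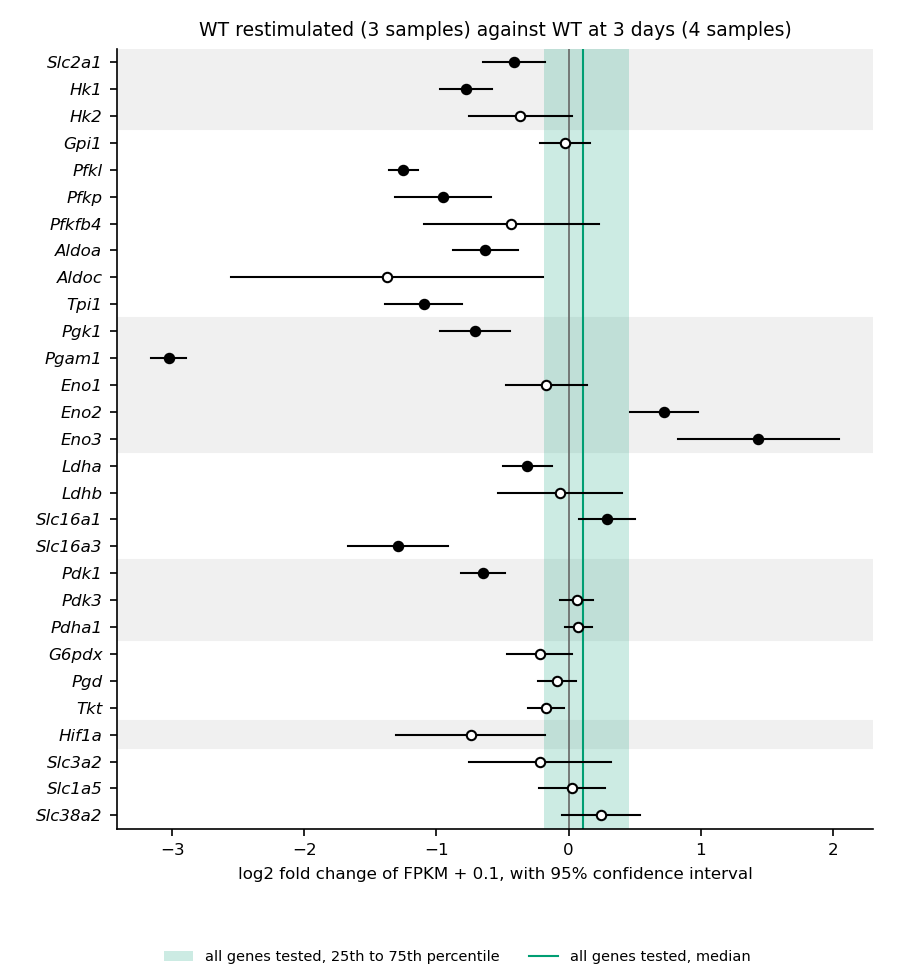
Log2 fold change of FPKM + 0.1 in WT restimulated (3 samples) against WT at 3 days (4 samples), with 95% confidence intervals as lines and filled marks for an adjusted p of at most 0.05. The green line is the median of all genes tested (0.11) and the green band runs from their 25th to their 75th percentile (-0.19 to 0.46), and Pgam1 lies farthest to the left, at -3.03.

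The largest difference was that of Pgam1, at 263 to 273 FPKM in the 4 WT samples at 3 days and 34.9, 33.6 and 30.3 FPKM in the 3 restimulated ones, or -3.14 relative to the median of all genes on the log2 scale (limma adjusted p = 2.34e-07). The locus had the same span in both experiments, though in the first it was listed by name in 2 samples and matched by position in 6. The HDAC1cKO samples were also low, at 33.8 to 39.2 FPKM. Of the transcript stretches counted for Pgam1, 41.5% occur in other genes. The leading one, Pgam1-ps2, had a value only in samples of the first experiment, at no more than 0.0398 FPKM. Restimulation and the different annotations of the experiments cannot be told apart in this difference. Pfkl was 83.5 to 88.4 FPKM at 3 days and 35.3, 38.3 and 35.3 after restimulation. Pfkp was 151 to 169 FPKM at 3 days and 99.3, 63.2 and 89.4 after restimulation. Tpi1 was 804 to 1088 FPKM at 3 days and 476, 445 and 382 after restimulation. For these 3 genes the differences relative to the median were -1.36, -1.06 and -1.21 (limma adjusted p = 5.53e-06, 0.00407 and 0.000861), and the groups did not overlap, as in 17 of the 29 members and in 43.4% of all genes.

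Among the lactate genes the 2 carriers went apart. Slc16a3 was 111 to 132 FPKM at 3 days and 61.4, 49.2 and 37.9 after restimulation, and Slc16a1 was 41.3 to 42.5 FPKM at 3 days and 60.1, 48.4 and 46.7 after restimulation. Relative to the median they differed by -1.40 and 0.18. Before that subtraction the changes were -1.29 and 0.29 (limma adjusted p = 0.00137 and 0.0452), and the call of Slc16a1 was lost in 9 of 22 other settings. Slc16a3 thereby went from 73.9% to 48.6% of the 2 carriers (exact permutation p = 0.0286, the smallest that 4 against 3 samples allow, and 0.0400 adjusted over 14 sums and shares). Ldha was 0.42 below the median (limma adjusted p = 0.0220), a call lost in 5 of 21 other settings, and the loci matched to it differed between the 2 experiments.

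Eno3 was 39.7 to 51.5 FPKM at 3 days and 79.4, 134 and 175 after restimulation, and Eno2 was 3.25 to 4.21 FPKM at 3 days and 5.95, 5.99 and 6.81 after it. Relative to the median these are 1.32 and 0.61 on the log2 scale (limma adjusted p = 0.00635 and 0.00306). Eno3 and Eno2 were therefore the members that were higher both in HDAC1cKO-HDAC2HET and in restimulated WT cells, though the 2 comparisons share the WT samples at 3 days. Slc2a1, Hk1, Aldoa, Pgk1 and Pdk1 were also lower after restimulation, by 0.53, 0.89, 0.74, 0.82 and 0.76 relative to the median, and the call of Slc2a1 was lost in 4 of 22 other settings. Hif1a was 117 to 139 FPKM at 3 days and 115, 56.5 and 64.8 after restimulation, at -0.85 relative to the median (limma adjusted p = 0.0512), and it passed without replicate 1 at an adjusted p of 0.000677. The pentose phosphate members Pgd, Tkt and G6pdx and the amino acid transporters Slc3a2, Slc1a5 and Slc38a2 did not pass.

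The neighbouring lists were counted between the cultures too, to be read against the 22.1% of all genes called higher and the 11.1% called lower. In the hypoxia pathway 8 of 17 genes were lower and 2 higher, with Egln3 and Bnip3, known HIF targets, at -3.27 and -2.19 and Adm, which encodes adrenomedullin, at 3.05 relative to the median on the log2 scale. Egln3 was 33.8 to 56.004 FPKM at 3 days and 2.51 to 13.3 after restimulation. Of the other pyruvate and lactate genes 7 of 15 were higher and none lower by limma, where 8 had an unadjusted p under 0.05 against 44.4% of all genes, the largest being Slc16a6 at 1.04, Dlat at 0.85 and Mpc2 at 0.58. Other glycolytic and glucose genes were higher in 5 and lower in 3 of 13, with Slc2a6 at 1.51 and Pgm1 at -1.37. Among regulators 4 of 16 were higher and 1 lower, with Mlx at 1.14 and Myc at 0.47. Other amino acid transporters were higher in 4 of 13 and lower in none. Of the other pentose phosphate genes 1 of 4 was lower and none higher. Amino acid response genes were higher in 1 of 12 and lower in none.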

How the data were processed

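FPKM values were deposited by the authors in 1 table per sample. Per the paper's methods, 50-base reads were aligned with TopHat to mm10 and quantified with Cufflinks, while the submitters' processing notes list STAR 2.5.2b, Subread 1.5.1, R 3.4 and edgeR without roles. Most members were listed as assembled loci without a name and were matched by position, sharing at least 0.8 of the joint span with the GENCODE M21 gene or transcript. Failed estimates, assembled loci at 0 and loci unlike between samples were left out. Library totals were not given. From the confidence bounds of genes with 1 annotated transcript about 25500000 to 60000000 fragments per sample were estimated.

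Genes with a mean of at least 0.1 FPKM were fitted with limma 3.58.1 (R 4.3.3, with an intensity trend) on log2(FPKM + 0.1), a scale that understates changes of low genes, 4 against 4, 3 against 3 or 4 against 3 samples, and all 14 for the difference between mutants. Benjamini-Hochberg adjustment ran over all genes. Single values used 2-sided exact permutation tests. The fits were tested on simulated data. The members and gene lists were chosen with earlier results of these data known. Values per sample are given for members with an adjusted p of at most 0.05 (and a log2 change of at least 0.5 for HDAC1cKO-HDAC2HET), the 3 highest, Hif1a, and the 5 largest called differences in each direction between WT cultures, and up to 3 called genes per list. Sharing of 50-base stretches was counted over GENCODE transcripts. Promoters came from RefSeq.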

Additional observations from a re-analysis of the deposited data

Results flagged for a closer look

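By fixed rules 5 values stood out. In HDAC1cKO-HDAC2HET, Hk1 in replicate 1 (110 FPKM) lay above the 98.8 to 100 FPKM of the other 3 samples, with a gap of 0.869 of the group's range, and G6pdx in replicate 1 (31.7 FPKM) lay below the other 3, with a gap of 0.830 of the range. These were 2 of 64 groups examined, where chance gives about 1 in 20. The difference between the 2 mutant effects passed for Eno3 (1.06 on the log2 scale), Slc2a1 (-0.67) and Pgam1 (-0.38).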

How the results depend on the processing

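The counts were recomputed under other pseudocounts (0.01 and 1), filters, scalings, variance settings, matching rules and with single samples left out. In HDAC1cKO-HDAC2HET, 18 of the 25 calls held in every alternative and 7 were lost in some, and no direction reversed. With the replicate block 13 members were higher and 8 lower, and leaving out single samples gave 13 to 15 higher and 7 to 8 lower. The replicate numbers did not pair the samples: same-number deviations correlated at -0.00550 to 0.0461 in the first experiment and at -0.0198 to 0.00510 in the second. In HDAC1cKO the replicate block left the count at 0, as did leaving out any sample, while the fit over all 14 samples called 5 of 29 members and 11% of all genes. Between WT cultures, leaving out single samples gave 2 to 3 higher and 9 to 16 lower members. The count for the difference between mutants was 1 with TPM scaling and 0 to 3 with single samples left out. No count is given for the sex covariate, where the HDAC1cKO effect rests on 1 WT sample. The causes were not tested. With rows listed by name alone no member could be tested: Gapdh alone was listed by name in all 8 samples of the first experiment, with a failed status in 7, and none was in every sample of the second. The depth estimate is rough, and no interval was drawn from it.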
